A study of Mus musculus with 3 samples.

Results

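The VEGF ligands, receptors and neuropilins were described as 9 of the 32285 genes in the deposited matrices, chosen by symbol. They were the receptors Flt1, Kdr and Flt4, the neuropilins Nrp1 and Nrp2, and the ligands Vegfa, Vegfc, Vegfd and Pgf, and each had 1 row. Cells came from the small intestine, without the duodenum, of wild type C57Bl/6 females aged 9 to 10 weeks, and each of the 3 libraries pooled 4 animals. EDTA and DTT were used to strip the epithelium, a warm digest with Liberase TL and DNase I followed, and live CD45- CD31+ PDPN+ cells were sorted, a gate that enriches lymphatic endothelial cells. There was 1 group and no treatment, so members were compared between classes of cells within each library. Nothing in the labels says whether the libraries shared animals, so p-values measure the spread between these 3 libraries, which may be technical.

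VEGF ligands are secreted dimers that act on receptor tyrosine kinases of endothelial cells. VEGF-A, encoded by Vegfa, drives growth and permeability of blood vessels mainly through VEGFR2, the product of Kdr, while VEGFR1, the product of Flt1, binds VEGF-A and placental growth factor and largely acts as a decoy. VEGF-C and VEGF-D bind VEGFR3, the product of Flt4, which is required for the growth of lymphatic vessels. Neuropilins are co-receptors: Nrp1 is known from arteries and blood capillaries, and Nrp2 from veins and lymphatic vessels. In the intestine, the lacteal of each villus is a lymphatic capillary known to depend on VEGF-C made by neighbouring cells.

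The files held 24541 barcodes with 202660429 UMIs, or unique molecular identifiers, each standing for 1 captured RNA molecule. Of these, 22534 cells were kept, with median depths of 7979, 7264 and 6698 UMIs in libraries 1, 2 and 3. Classes were set by marker gates that used no member. The gate for lymphatic endothelial cells (LEC: at least 1 Prox1 and 5 Lyve1 UMIs) took 18541 cells. The other gates took 119 blood endothelial cells (BEC), 445 fibroblasts, 268 mural cells (smooth muscle and pericytes), 612 epithelial cells, 213 macrophages, 137 T cells or innate lymphoid cells (T/ILC), 55 plasma cells and 21 glia. Cells passing 2 gates (523) or none (1600) were kept out of the comparisons. Levels are given as CPM, the UMIs of a gene per 1000000 UMIs summed over a class in a library. Of 41 markers that the gates did not use, 39 were highest in their own class. The exceptions were 1 of 5 BEC markers and 1 of 4 LEC markers, Mmrn1, which had 0 UMIs in every class, LEC included. The summed LEC markers stood at 11464 to 13781 CPM in LEC of the 3 libraries and at 103.5 to 210.4 CPM in BEC. Between 13 and 30 barcode sequences were shared by any pair of libraries. All class comparisons below share the LEC sums. Fewer cells that express a gene and less RNA per cell cannot be told apart in such sums.

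By GENCODE annotation on GRCm38, Flt1 (ENSMUSG00000029648) spans chr5:147561604-147726011 and Kdr (ENSMUSG00000062960) spans chr5:75932827-75978458, both on the minus strand. Flt4 (ENSMUSG00000020357) lies at chr11:49609263-49652739, Nrp1 (ENSMUSG00000025810) at chr8:128358604-128503363 and Nrp2 (ENSMUSG00000025969) at chr1:62703285-62818695, all on the plus strand. Among the ligands, Vegfa (ENSMUSG00000023951) lies at chr17:46016993-46032369 and Pgf (ENSMUSG00000004791) at chr12:85166635-85177790 on the minus strand, and Vegfc (ENSMUSG00000031520) at chr8:54077606-54187096 and Vegfd (ENSMUSG00000031380) at chrX:164373378-164402650 on the plus strand. The 3′ assay counts the end of transcripts over the whole gene and does not separate soluble from membrane isoforms.

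Of the receptors and neuropilins, the 4 genes below differed between BEC and LEC, with Flt1 and Nrp1 higher in BEC and Flt4 and Nrp2 higher in LEC, and their promoters are shown to set the sequences of the opposed pairs side by side. Each line gives the 250 bases before the RefSeq start of the gene (GRCm38.p6), 5′ to 3′ on the strand of the gene. Capitals mark each match to GGAA or its reverse complement TTCC, the core letters read by ETS factors, which are active in all endothelial cells.
Flt1: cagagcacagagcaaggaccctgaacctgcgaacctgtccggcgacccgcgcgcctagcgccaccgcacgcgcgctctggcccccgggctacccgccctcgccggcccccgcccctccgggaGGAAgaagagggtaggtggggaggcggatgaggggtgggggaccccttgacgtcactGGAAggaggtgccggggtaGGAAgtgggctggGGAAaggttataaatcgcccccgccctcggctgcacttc
Flt4: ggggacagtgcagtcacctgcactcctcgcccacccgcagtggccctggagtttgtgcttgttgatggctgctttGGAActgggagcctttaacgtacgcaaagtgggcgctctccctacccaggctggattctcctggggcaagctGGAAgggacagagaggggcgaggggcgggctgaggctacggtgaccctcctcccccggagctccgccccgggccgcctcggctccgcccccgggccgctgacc
Nrp1: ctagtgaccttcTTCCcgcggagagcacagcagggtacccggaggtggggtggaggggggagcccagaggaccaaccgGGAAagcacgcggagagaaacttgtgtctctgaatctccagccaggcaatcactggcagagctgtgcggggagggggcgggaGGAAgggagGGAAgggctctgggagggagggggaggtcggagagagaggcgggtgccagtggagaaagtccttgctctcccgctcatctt
Nrp2: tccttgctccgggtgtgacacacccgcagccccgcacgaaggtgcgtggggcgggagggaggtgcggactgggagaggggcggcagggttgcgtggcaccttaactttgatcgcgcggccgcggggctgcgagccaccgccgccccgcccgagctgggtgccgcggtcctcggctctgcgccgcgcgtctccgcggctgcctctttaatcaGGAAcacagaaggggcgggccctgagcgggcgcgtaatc
These windows are chr5:147726012-147726261 (minus strand) for Flt1, chr11:49609429-49609678 for Flt4, chr8:128358823-128359072 for Nrp1 and chr1:62703067-62703316 for Nrp2. RefSeq starts differ from the GENCODE spans above: by those spans the Flt4 and Nrp1 windows lie inside the gene, and the Nrp2 window runs past its start. Flt1 and Nrp1 held 4 matches each, Flt4 held 2 and Nrp2 held 1. Outside these pairs the counts did not follow the levels throughout. Kdr, whose difference between BEC and LEC did not pass the test described below, also held 4, and Vegfc, higher in BEC, held 1. Pgf, lower in BEC, held 0 in each of its windows. The letters are common: 93.4% of the 32851 promoter windows of the table held at least 1 match, with a median of 3. GATAA was found in 22.6% and ACGTG in 16.6% of all windows, each searched on both strands, and neither occurred in the 4 windows printed here. A match describes the letters only.

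In BEC against LEC, Flt1, Nrp1 and Vegfc were higher, and Flt4, Nrp2 and Pgf were lower. Kdr was abundant in both. Of the 9 members, 3 were higher, 3 were lower and 3 did not pass the test (edgeR adjusted p under 0.05 over all genes), where 22.7% of 12706 genes passed, 9.68% as higher and 13% as lower.

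Flt1 had 2701, 1432 and 2467 CPM in BEC of libraries 1, 2 and 3, against 1.13, 8.47 and 1.05 CPM in LEC. Every BEC value lay far above every LEC value, and the highest LEC value was in library 2. The log2 fold change was 9.21 ± 0.87 (SE, edgeR adjusted p 1.04e-07, n = 3 libraries). The LEC level itself rested on few barcodes: in library 2, 287 of the 305 Flt1 UMIs lay in 15 LEC with at least 5 UMIs of Plvap, a gene of fenestrated blood capillaries. Outside such barcodes LEC held 0.700, 0.504 and 0.486 CPM of Flt1, and the log2 fold change was then 11.85. Without library 2 it was 11.08, and 8.60 and 8.62 without library 1 or library 3.

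Nrp1, the co-receptor that presents VEGF-A to VEGFR2, showed the same split. Its level was 899, 515 and 1067 CPM in BEC, against 0.329, 3.22 and 0.502 CPM in LEC. The groups did not overlap, and library 2 was again the lowest of the BEC and the highest of the LEC. Nrp1 had a log2 fold change of 9.29 ± 0.60 (SE, edgeR adjusted p 5.27e-10, n = 3). It was 11.42 with the Plvap-bearing LEC left out, 11.06 without library 2, 8.68 without library 1 and 7.95 with the LEC gate applied alone.

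Kdr had 1857, 843 and 1321 CPM in BEC, against 1109, 1061 and 1056 CPM in LEC. The groups overlapped: BEC were above LEC in libraries 1 and 3 and below in library 2. Kdr thus had a log2 fold change of 0.12 ± 0.37 (SE, 95% interval -0.61 to 0.84), with an edgeR adjusted p of 0.876. BEC varied between libraries by 507 CPM (SD, n = 3), LEC by 29.4 CPM.

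Flt4 was the reverse of Flt1, with 136, 58.2 and 152 CPM in BEC, against 1662, 1544 and 1459 CPM in LEC. The lowest LEC value was far above the highest BEC value, and the log2 fold change was -4.00 ± 0.31 (SE, edgeR adjusted p 5.41e-09). BEC held 6.00% of the LEC level of Flt4, while Ccl21a, an abundant LEC gene that the gates did not use, was at 1.12% of its LEC level. Flt4 UMIs were found in 48 of the 119 BEC. Nrp2 had 457, 237 and 232 CPM in BEC, against 1586, 1249.8 and 1359.6 CPM in LEC. These groups did not overlap either, and the log2 fold change was -2.30 ± 0.23 (SE, edgeR adjusted p 2.55e-07).

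Among the ligands, Vegfc had 108.9, 109.98 and 87.1 CPM in BEC, against 0.556, 1.11 and 0.535 CPM in LEC. BEC thus held the lymphatic growth factor at a similar level in each library, and LEC held almost none. Vegfc was higher by a log2 fold change of 7.10 ± 0.40 (SE, edgeR adjusted p 6.48e-11). With Plvap-bearing LEC left out it was 7.77. Pgf, encoding a ligand of VEGFR1 and not of VEGFR2, had 5.45, 69.0 and 14.5 CPM in BEC, against 160.5, 110.5 and 174 CPM in LEC. All BEC values were lower, but 29 of the 32 Pgf UMIs of library 2 lay in 1 BEC. Over all cells Pgf had a log2 fold change of -1.74 ± 0.40 (SE, edgeR adjusted p 0.00301). Without library 2 it was -4.26, and without library 3 it was -1.31 with an adjusted p of 0.0798. At 3000 UMIs per cell it was -2.50, and it was also larger in size with cells passing both the BEC and the mural gate kept as BEC. Vegfa had 4 UMIs and Vegfd 2 UMIs in all BEC together, and neither passed the test (edgeR adjusted p 0.179 and 0.733).

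**Figure D1:**
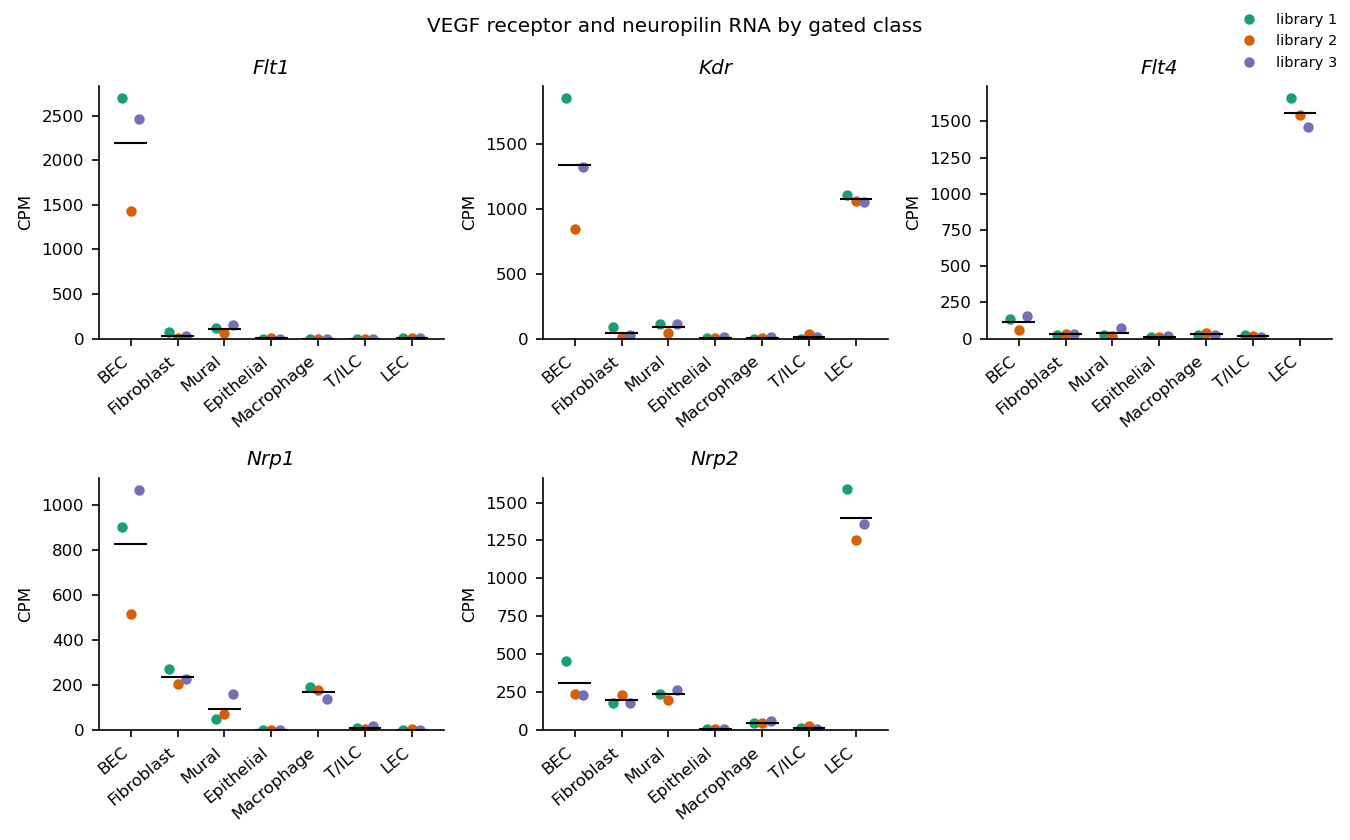
CPM (linear axis) of the 5 receptor and neuropilin genes in 7 gated classes, 1 point per library with a bar at the mean of 3 libraries. Flt1 and Nrp1 stand highest in BEC (2200 and 827 CPM on average), Flt4 and Nrp2 in LEC (1555 and 1399 CPM), and Kdr in both BEC (1340 CPM) and LEC (1075 CPM).

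Within BEC, subset gates separated 11 arterial (Gja5), 25 venous (Madcam1, Selp or Ackr1, without Gja5) and 83 capillary cells. The subsets were too small for a test by library, so UMIs were pooled, and the intervals are exact 95% Poisson intervals that cover counting error only. Flt1 had 2116 CPM (1796 to 2476) in arterial, 2693 CPM (2538 to 2855) in capillary and 743 CPM (648 to 848) in venous BEC. Kdr had 915 CPM (709 to 1161) in arterial, 1737 CPM (1613 to 1868) in capillary and 409 CPM (339 to 489) in venous BEC. Nrp1 had 437, 1164 and 109 CPM in arterial, capillary and venous BEC. Library 2 held 19 of the 25 venous and 7 of the 11 arterial cells, so the pooled order of these subsets leans on it. Flt1 and Nrp1 were highest in capillary and lowest in venous cells of each library. Kdr was highest in capillary cells of every library, but arterial cells had 365, 1060 and 580 CPM, against 473, 386 and 682 CPM in venous cells, so venous cells were lowest in library 2 alone. Flt4 was found at 68.3 CPM (22.2 to 159) in arterial, 139 CPM (105 to 179) in capillary and 34.1 CPM (16.3 to 62.7) in venous BEC. Nrp2 had a different order, at 54.6 CPM (14.9 to 139.8) in arterial cells, 313 CPM (262 to 371) in capillary cells and 310.1 CPM (249.7 to 381) in venous cells. Vegfc was highest in arterial BEC, at 437 CPM (299 to 617), with 31.1 CPM (16.5 to 53.1) in capillary and 129.5 CPM (91.6 to 178) in venous cells. Vegfc UMIs were found in 8 of the 11 arterial BEC, 9 of the 83 capillary BEC and 14 of the 25 venous BEC.

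**Figure D2:**
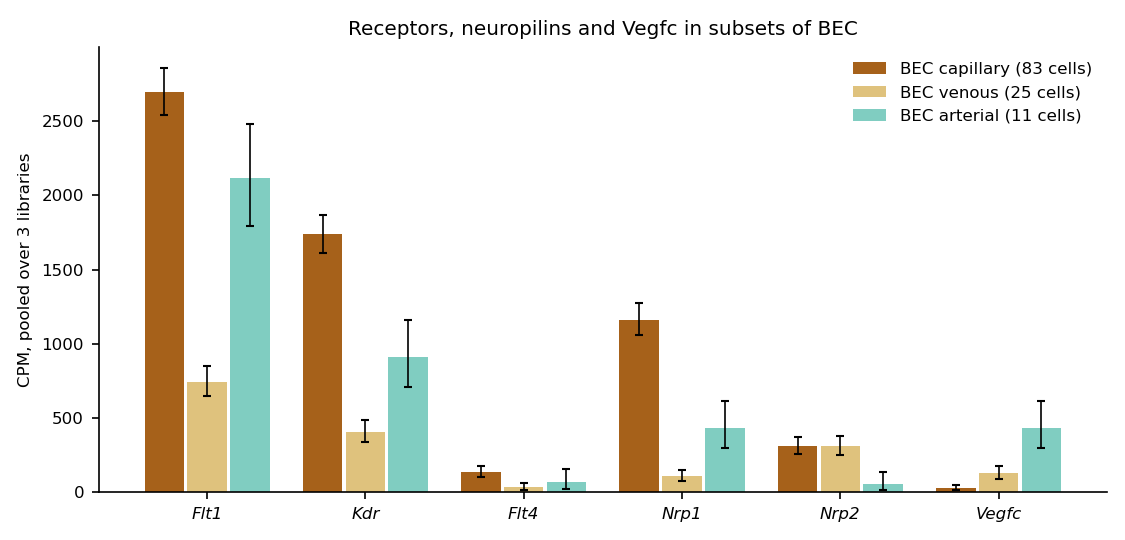
CPM (linear axis) of 6 genes in capillary, venous and arterial BEC, with UMIs pooled over 3 libraries; error bars are exact 95% Poisson intervals for counting error only. Flt1, Kdr and Nrp1 are highest in capillary cells, and Vegfc is highest in the 11 arterial cells (437 CPM); the pooled order of Kdr between arterial and venous cells holds in library 2 alone.

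Fibroblasts were compared with LEC, since villus stroma is a known source of VEGF ligands. Fibroblasts, mural cells, epithelial cells and macrophages were outside the CD45- CD31+ PDPN+ definition of the sort, and PDPN- BEC likewise, so those captured may not represent their types. The ligands Vegfa, Vegfc and Vegfd were higher in fibroblasts, together with Nrp1. Of the 9 members, 5 were higher and 4 were lower, where 48.3% of all genes tested passed, 24.5% as higher and 23.8% as lower.

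Vegfa had 59.6, 47.8 and 49.2 CPM in fibroblasts, against 14.7, 9.53 and 13.8 CPM in LEC. The groups did not overlap, and the log2 fold change was 2.004 ± 0.196 (SE, edgeR adjusted p 3.63e-08). Vegfc had 16.1, 21.8 and 15.2 CPM in fibroblasts, against 0.556, 1.11 and 0.535 CPM in LEC. That was a log2 fold change of 4.60 ± 0.38 (SE, edgeR adjusted p 2.8e-09). Vegfd, encoding the second VEGFR3 ligand, had 24.1, 21.0 and 16.1 CPM in fibroblasts, against 1.26, 1.22 and 1.15 CPM in LEC. Its log2 fold change was 4.03 ± 0.39 (SE, edgeR adjusted p 3.18e-08), and UMIs came from 52 of the 445 fibroblasts. Pgf was lower in fibroblasts, at 56.3, 26.4 and 35.8 CPM, against 160.5, 110.5 and 174 CPM in LEC (log2 fold change -2.04 ± 0.29, edgeR adjusted p 5.77e-06). With Plvap-bearing LEC left out, the log2 fold changes in fibroblasts were 5.43 for Flt1, 9.72 for Nrp1 and 5.29 for Vegfc, and with the LEC gate applied alone Nrp1 stood at 6.23.

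Nrp1 had 270.4, 204 and 226 CPM in fibroblasts, against 0.329, 3.22 and 0.502 CPM in LEC, and was found in 284 of the 445 fibroblasts. Nrp1 was higher by a log2 fold change of 7.56 ± 0.57 (SE, edgeR adjusted p 6.93e-10), and 9.18 without library 2. Without library 1 it was 6.97. Nrp2 had 180.3, 232 and 177 CPM in fibroblasts, lower than in LEC by a log2 fold change of -2.85 (edgeR adjusted p 1.55e-09). Kdr and Flt4 averaged 41.2 ± 43.1 and 29.5 ± 3.37 CPM in fibroblasts (SD, n = 3), with log2 fold changes of -5.16 and -5.73. The Kdr log2 fold change was -6.15 without library 1 and -4.40 without library 2. Flt1 had 44 UMIs in library 1, all in 1 cell, and 37 more in 5 cells of the other libraries. Its log2 fold change of 2.90 (edgeR adjusted p 0.00942) was -1.06 (adjusted p 0.573) with fibroblasts of at least 2 UMIs of Cdh5, encoding the endothelial VE-cadherin, left out, and the Kdr and Flt4 values were then -7.60 and -6.33. Flt1 also lost the call without library 1 (1.35, adjusted p 0.29) and without library 3 (2.32, adjusted p 0.129), and stood at 5.35 without library 2.

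Fibroblasts with at least 1 UMI of Wnt5a, a Wnt ligand of subepithelial fibroblasts and telocytes, differed from those with none, given here as a description with no test. Vegfa had 93.7, 73.6 and 65.0 CPM in the 190 Wnt5a+ fibroblasts, against 33.9, 26.7 and 37.5 CPM in the 255 Wnt5a- fibroblasts. Vegfd had 52.5, 24.2 and 33.5 CPM in Wnt5a+ cells, against 2.82, 18.3 and 3.12 CPM in Wnt5a- cells. Nrp2 had 247, 282 and 256 CPM in Wnt5a+ cells, against 129.8, 192 and 119 CPM in Wnt5a- cells. For these 3 of the 9 members every Wnt5a+ value lay above every Wnt5a- value, as for 9.82% of 12705 genes. Pgf lay the other way, at 18.7, 14.0 and 23.1 CPM in Wnt5a+ cells and 84.6, 36.7 and 45.3 CPM in Wnt5a- cells, without overlap, as for 5.72% of genes, and Vegfc overlapped (16.3 ± 4.57 and 18.8 ± 2.94 CPM, SD, n = 3).

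In mural cells, Vegfc and Vegfd were higher than in LEC and Vegfa was not. Of the 9 members, 4 were higher, 4 were lower and 1 did not pass, where 51.7% of all genes tested passed, 27.8% as higher and 23.9% as lower. Vegfd had 124.7, 42.1 and 20.6 CPM in mural cells, against 1.26, 1.22 and 1.15 CPM in LEC. All mural values were higher, but they differed between libraries, with 39 UMIs from 6 cells in library 1. Vegfd had a log2 fold change of 5.52 ± 0.37 (SE, edgeR adjusted p 1.53e-10), and 4.80 without library 1. Most of this RNA was in cells with at least 2 UMIs of Myh11, the smooth muscle myosin: 139 of the 141 Vegfd UMIs came from 223 muscle cells and 2 from 45 pericyte-gated cells. Vegfc had 16.0, 20.1 and 56.7 CPM in mural cells, against 0.556, 1.11 and 0.535 CPM in LEC (log2 fold change 5.40 ± 0.39, edgeR adjusted p 4.54e-10). It was highest in library 3, without which the log2 fold change was 4.63, and it was 6.18 without library 2. Vegfa had 6.40, 8.42 and 10.3 CPM in mural cells, below the LEC value of the same library in each case, with a log2 fold change of -0.33 (edgeR adjusted p 0.439).

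Nrp2 had 239.9, 200.2 and 263 CPM in mural cells, lower than in LEC (log2 fold change -2.47, edgeR adjusted p 1.5e-08), and was found in 204 of 268 cells. Nrp1 averaged 478 ± 94.5 CPM in pericyte-gated cells and 53.1 ± 61.4 CPM in muscle cells (SD, n = 3). Single cells carried much of this, with 10 of 11 UMIs in 1 of 3 pericyte-gated cells of library 1 and 56 of 111 in 1 cell of library 2. With the highest cell of each library left out, Nrp1 had 77.7, 305 and 285 CPM in pericyte-gated cells, against 7.03, 19.2 and 109.6 CPM in muscle cells. Over all mural cells Nrp1 was above LEC by a log2 fold change of 6.35 ± 0.58 (edgeR adjusted p 1.49e-08), or 8.04 without library 2 and 5.47 without library 3. Flt1 and Kdr averaged 111 ± 45.8 and 89.5 ± 39.1 CPM (SD, n = 3), from 26 and 37 of 268 cells. With mural cells of at least 2 Cdh5 UMIs left out, Flt1 averaged 44.99 ± 51.1 and Kdr 27.5 ± 28.6 CPM (SD, n = 3). For Flt1 the log2 fold change over LEC was 5.07 with all cells and 3.79 under that filter. It was 4.45, 7.05 and 4.20 without libraries 1, 2 and 3. For Kdr it was -3.63, and -5.30 with those cells left out. Nrp1 and Flt4 stood at 5.72 and -6.20 under the same filter, all still past the threshold. With Plvap-bearing LEC left out, the mural values were 7.74 for Flt1, 8.55 for Nrp1 and 6.08 for Vegfc, and with the LEC gate applied alone Nrp1 stood at 4.96. Flt4 and Pgf were lower than in LEC, by log2 fold changes of -5.47 and -3.26 (edgeR adjusted p 2.19e-11 and 4.38e-07), and Flt4 stood at -6.20 without library 3.

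In epithelial cells, Vegfa was the 1 member that was higher. It had 23.0, 22.9 and 22.6 CPM in epithelial cells, against 14.7, 9.53 and 13.8 CPM in LEC. The epithelial values were nearly equal and lay above all LEC values, with a log2 fold change of 1.25 ± 0.18 (SE, edgeR adjusted p 2.32e-06). At 3000 UMIs per cell the log2 fold change was 2.69. Of the other members, 6 were lower, and Nrp1 and Vegfc did not pass (edgeR adjusted p 0.718 and 0.103), where 75.7% of all genes tested passed, 37.2% as higher and 38.5% as lower. With Plvap-bearing LEC left out, Nrp1 (log2 fold change 1.88, adjusted p 0.019) and Vegfc (1.65, adjusted p 0.00826) were higher in epithelial cells, from 13 and 20 UMIs. Vegfc also passed with the top 5% of UMIs left out (1.63, adjusted p 0.0132), under the stricter LEC gate and under the stricter cell filter, or in 4 of 17 alternatives. Kdr, Flt4 and Nrp2 stood at 0.594%, 0.744% and 0.558% of their LEC levels in epithelial cells, beside 0.886% for the LEC gene Ccl21a, which the gates did not use. In library 3, 11 of the 25 Kdr UMIs lay in 1 epithelial cell. Without epithelial cells of 2 Cdh5 UMIs, the Kdr log2 fold change of -6.94 was -7.78. Flt1 and Vegfd had 4 and 2 UMIs in all 612 cells. Their log2 fold changes of -3.57 and -3.05 were -6.72 and -7.02 without library 2, and the Flt1 call was lost without library 3 (adjusted p 0.0589) and in 8 of 17 alternatives in all.

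Macrophages numbered 19 in library 1, under the minimum of 20 cells per library, and were tested with a minimum of 15 chosen after the data were seen. Of the 9 members, 2 were higher, 3 were lower and 4 did not pass, where 49.6% of genes passed, 26.4% as higher and 23.2% as lower. Nrp1 had 191, 177 and 139 CPM in macrophages, against 0.329, 3.22 and 0.502 CPM in LEC (log2 fold change 7.37, edgeR adjusted p 1.38e-10), and 6.72, 8.61 and 7.01 without libraries 1, 2 and 3. Vegfa had 8.70, 24.2 and 80.5 CPM in macrophages, against 14.7, 9.53 and 13.8 CPM in LEC. The level was lower than in LEC in library 1, which gave 1 UMI, and higher in the other libraries, with a log2 fold change of 2.19 ± 0.34 (SE, edgeR adjusted p 9.24e-06), or 1.27 without library 3 (adjusted p 0.0321). Pgf had 174, 80.5 and 109.9 CPM in macrophages, overlapping the 160.5, 110.5 and 174 CPM in LEC. Pgf had a log2 fold change of -0.11 (95% interval -0.65 to 0.42, edgeR adjusted p 0.759). Flt1, Vegfc and Vegfd had 0 UMIs in 213 macrophages, which allows up to 1.71 CPM. T/ILC, taken as a class that should lack these genes, held 14.0 ± 15.8 CPM of Kdr, 15.8 ± 5.66 CPM of Flt4 and 15.7 ± 11.5 CPM of Nrp2 (SD, n = 3). Vegfa, with 3 UMIs in 137 T/ILC, and Pgf, also with 3, were near 0 there.

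**Figure D3:**
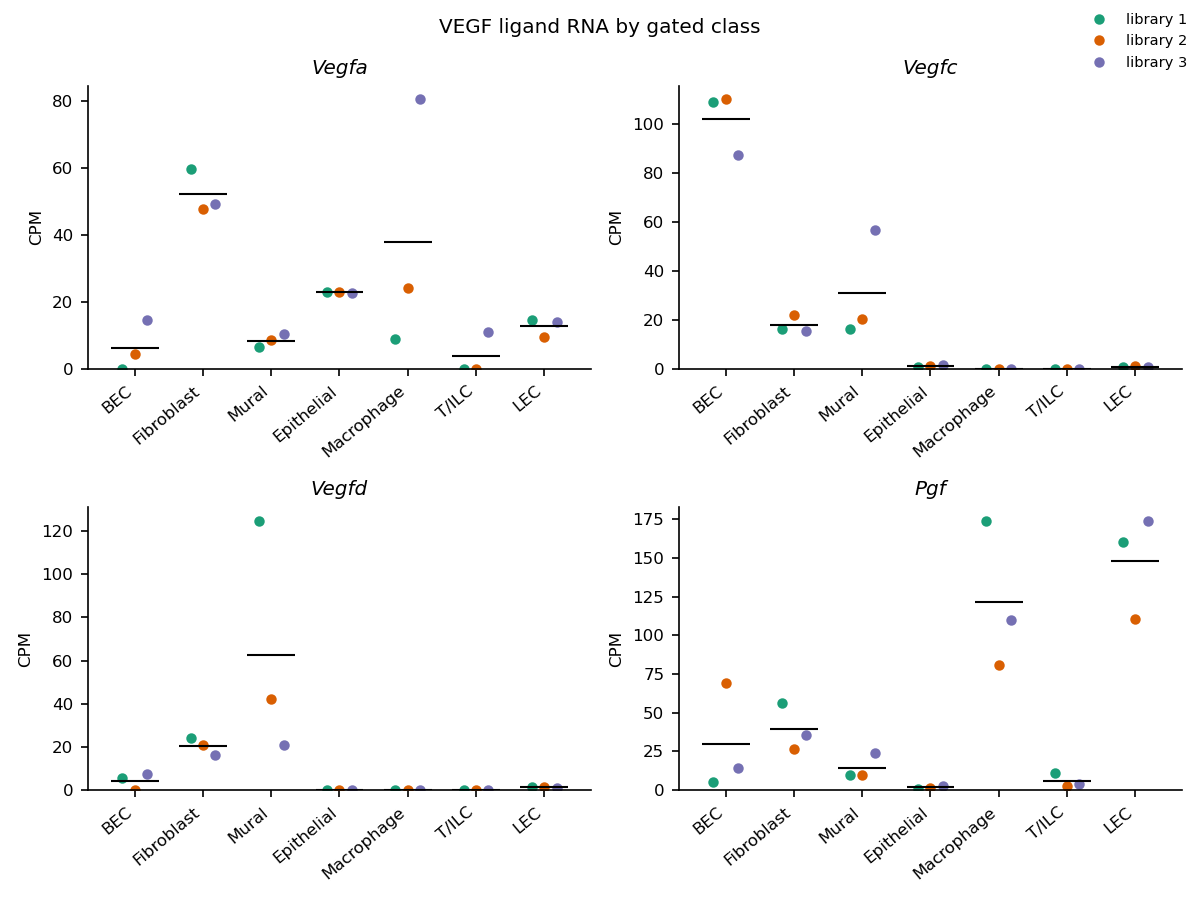
CPM (linear axis, each gene on its own scale) of the 4 ligand genes in 7 gated classes, 1 point per library with a bar at the mean of 3 libraries. Vegfa is highest in fibroblasts (52.2 CPM on average, with all UMIs of each cell counted) and Vegfc in BEC (102 CPM). Vegfd is highest in mural cells (62.5 CPM, with libraries from 20.6 to 124.7 CPM), and Pgf in LEC (148 CPM) and macrophages (122 CPM).

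Ordered by mean level, Vegfa ran from fibroblasts (52.2 ± 6.40 CPM) through macrophages (37.8 ± 37.8 CPM), epithelial cells (22.8 ± 0.182 CPM) and LEC (12.7 ± 2.75 CPM) to mural cells (8.38 ± 1.96 CPM) and BEC (6.28 ± 7.45 CPM; SD, n = 3 each). Macrophages spread over the range of their neighbours, and the values of LEC, mural cells and BEC overlapped. This order is for sums of all UMIs of each cell. With cells thinned to 3000 UMIs, the Vegfa log2 fold change over LEC was 2.69 in epithelial cells. In fibroblasts it was at most 2.41 over 17 alternatives, thinning included. By that fold, epithelial cells stood above fibroblasts at 3000 UMIs, so the order of these classes depends on depth. Vegfc ran from BEC (102 ± 12.9 CPM) through mural cells (30.95 ± 22.4 CPM) and fibroblasts (17.7 ± 3.59 CPM) to epithelial cells (1.11 ± 0.368 CPM) and LEC (0.734 ± 0.326 CPM), and macrophages and T/ILC had none. Mural cells and fibroblasts overlapped in that order. Nrp1 ran from BEC (827 ± 283 CPM) through fibroblasts (234 ± 33.6 CPM), macrophages (169 ± 26.9 CPM) and mural cells (93.7 ± 60.0 CPM) to T/ILC (10.5 ± 7.90 CPM), with LEC and epithelial cells at 1.35 ± 1.62 and 0.533 ± 0.468 CPM. Nrp2 was highest in LEC (1399 ± 172 CPM), and BEC, mural cells and fibroblasts (309 ± 129, 234 ± 31.8 and 197 ± 31.1 CPM) overlapped between libraries, although BEC were above fibroblasts within each library; these classes were not tested against each other.

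Among LEC, Flt4, Kdr and Nrp2 were found in nearly all cells, and the ligands were not. To compare cells at 1 depth, each of 18083 LEC was thinned to 3000 UMIs, and 458 shallower LEC were left out. Flt4 was found in 98.7%, 98.7% and 98.1% of LEC of libraries 1, 2 and 3, Kdr in 94.2%, 93.3% and 93.8%, and Nrp2 in 94.6%, 90.7% and 92.6%. In T/ILC, at a median depth of 4836 UMIs against 7206 UMIs in LEC, the same shares at 3000 UMIs were 2.44%, 4.88% and 4.88%. Flt4, Kdr and Nrp2 were seen together in 88.4%, 83.7% and 85.4% of LEC. Unthinned, Flt4, Kdr and Nrp2 were seen in at least 99.8%, 99.0% and 97.2% of LEC in every library.

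Pgf was found in 24.8%, 17.96% and 25.4% of LEC at 3000 UMIs, against 2.44% of T/ILC. Vegfa was found in 4.02%, 2.28% and 3.72% of LEC, against 0.813% of T/ILC (95% exact binomial interval 0.0206% to 4.45%). Vegfd and Vegfc were found in 0.434 ± 0.0728% and 0.189 ± 0.0751% of LEC (SD, n = 3), within what 0 of 123 T/ILC allows (2.44%). The variance of UMIs per cell over their mean, which is 1 for pure counting noise, was 1.24 ± 0.00677 for Flt4, 1.38 ± 0.0138 for Kdr, 2.10 ± 0.0343 for Nrp2 and 2.48 ± 0.160 for Pgf (SD, n = 3). Nrp2 and Pgf thus varied more between LEC than Flt4 and Kdr. In libraries 1, 2 and 3, Pgf was seen in 25.2%, 18.8% and 26.0% of LEC with a Nrp2 UMI, against 17.2%, 9.70% and 17.2% of LEC without one. By Kdr the order was the other way, at 24.6%, 17.6% and 24.9% of LEC with a Kdr UMI and 27.5%, 22.6% and 32.0% of LEC without.

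**Figure D4:**
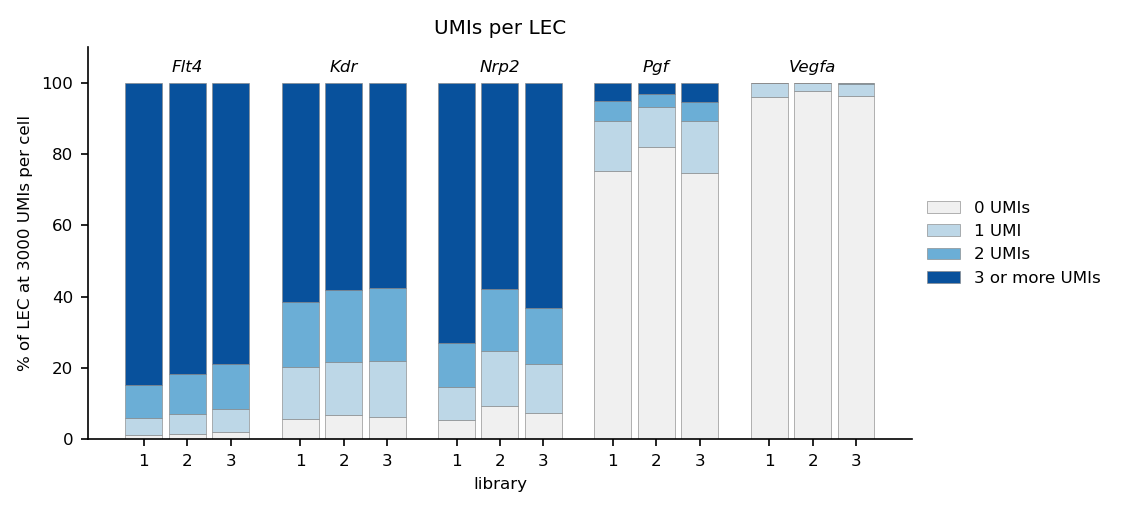
Share of LEC (percent, all cells thinned to 3000 UMIs) with 0, 1, 2 or at least 3 UMIs of 5 genes, 1 bar per library. At least 3 Flt4 UMIs were seen in 84.96%, 81.7% and 78.8% of LEC, while 75.2%, 82.0% and 74.6% of LEC had no Pgf UMI.

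LEC were next divided by Itih5 and Clca3a1, a pair of genes that mark different LEC, into 5024 cells with Itih5 and no Clca3a1 UMI and 2340 cells with Clca3a1 and no Itih5 UMI. Nrp2, Pgf and Vegfa were higher on the Itih5 side, and Kdr was slightly lower. Of the 9 members, Nrp1 and Vegfc did not pass the filter on low counts and were not tested. Nrp1 had 9, 70 and 8 UMIs on the Clca3a1 side of libraries 1, 2 and 3, against 0, 7 and 2 on the Itih5 side. Of the other 7 members, 3 were higher, 3 were lower and 1 did not pass. Of all genes tested, 27.9% passed, 13.9% as higher and 14% as lower.

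Nrp2 had 1805, 1578 and 1671 CPM on the Itih5 side, against 1077, 836 and 899 CPM on the Clca3a1 side. The groups were well apart, and the log2 fold change was 0.80 ± 0.04 (SE, edgeR adjusted p 1.99e-11). Pgf had 222, 175 and 222 CPM on the Itih5 side, against 59.4, 33.8 and 76.6 CPM on the Clca3a1 side. It was higher in all 3 libraries, with a log2 fold change of 1.82 ± 0.09 (SE, edgeR adjusted p 2.6e-12). Vegfa had 15.3, 10.4 and 15.4 CPM on the Itih5 side, against 10.8, 6.91 and 11.3 CPM on the Clca3a1 side (log2 fold change 0.46, edgeR adjusted p 0.0103), a call lost with DESeq2 (adjusted p 0.284). It was higher in each library, although the groups overlapped between libraries. Kdr had 1072, 1056 and 1057 CPM on the Itih5 side, against 1182, 1127 and 1075 CPM on the Clca3a1 side, a log2 fold change of -0.14 (edgeR adjusted p 0.0213). The Kdr call was lost without library 1 (adjusted p 0.0895) and without library 2 (0.274). Flt4 did not pass (log2 fold change 0.06, 95% interval -0.02 to 0.14, edgeR adjusted p 0.347).

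Flt1 was lower on the Itih5 side (log2 fold change -2.80, edgeR adjusted p 1.3e-07), with 59 UMIs there and 222 on the Clca3a1 side. It was -1.92 with the top 5% of UMIs left out (adjusted p 0.000248). Plvap averaged 12.8 ± 9.77 CPM on the Itih5 side and 36.8 ± 43.6 CPM on the Clca3a1 side (SD, n = 3). With LEC of at least 5 Plvap UMIs left out, 25 Flt1 UMIs remained on the Itih5 side and 9 on the Clca3a1 side, too few for Flt1 to enter the test. In libraries 1, 2 and 3 this left 0.325, 0.461 and 0.899 CPM on the Itih5 side, against 1.08, 0.385 and 0.159 CPM on the Clca3a1 side. The Itih5 side was then lower in library 1 and higher in libraries 2 and 3. Vegfd had 36 UMIs (0.879 CPM on average) on the Itih5 side and 30 UMIs (1.76 CPM) on the Clca3a1 side. Its log2 fold change was -1.05 (edgeR adjusted p 0.0458), and the call was lost when any 1 library was left out (adjusted p 0.326, 0.0582 and 0.0622). Without the library as a replicate block, 2 of the 7 tested members were called, Nrp2 and Pgf. Mki67, a gene of dividing cells, averaged 26.3 ± 7.57 CPM on the Itih5 side and 2.602 ± 0.699 CPM on the Clca3a1 side (SD, n = 3), and its part in these results was not tested.

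LEC were also ranked by the summed UMIs of 6 immediate-early genes (Fos, Jun, Junb, Egr1, Atf3 and Ier2), and the upper tertile of each library was compared with the lower. Pgf and Vegfa were higher in the upper tertile of each library, for Pgf by a fold larger than the spread between libraries. Of the 7 members tested, 3 were higher, none was lower and 4 did not pass, where 38.6% of all genes tested passed, 21.7% as higher and 16.9% as lower. Pgf had 226, 169.9 and 257 CPM in the upper tertile, against 90.1, 49.9 and 77.3 CPM in the lower. The groups did not overlap, and the log2 fold change was 1.85 ± 0.08 (SE, edgeR adjusted p 1.79e-11). Vegfa had 16.7, 11.9 and 17.2 CPM in the upper tertile, against 11.7, 7.24 and 9.19 CPM in the lower. It was higher in every library, with a log2 fold change of 0.96 ± 0.11 (SE, edgeR adjusted p 3.13e-06).

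Kdr averaged 1010.5 ± 27.9 CPM in the upper and 1169 ± 28.2 CPM in the lower tertile (SD, n = 3), and Flt4 and Nrp2 were also lower in CPM in each library. After TMM scaling the log2 fold changes were 0.03, 0.10 and 0.02 for Kdr, Flt4 and Nrp2, and none passed (edgeR adjusted p 0.661, 0.149 and 0.781). The sign of these small differences therefore depends on the scaling. Flt1 passed (log2 fold change 1.10, edgeR adjusted p 0.0479) on 112 against 49 UMIs, but was higher in library 2 alone, and without library 2 its log2 fold change was -0.62 (adjusted p 0.389). With DESeq2 it was 0.43 and did not pass. With Plvap-bearing LEC left out, 22 and 26 Flt1 UMIs remained in the upper and lower tertiles, too few to be tested. Mki67 averaged 6.25 ± 2.21 CPM in the upper and 36.4 ± 5.11 CPM in the lower tertile (SD, n = 3), and its part was not tested.

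The sides and tertiles could be crossed. Pgf averaged 314 ± 40.4 CPM in Itih5-side LEC of the upper tertile and 97.7 ± 23.4 CPM in those of the lower tertile. On the Clca3a1 side it averaged 81.1 ± 27.8 CPM in the upper and 34.8 ± 11.7 CPM in the lower tertile (SD, n = 3 each). Pgf was thus higher on the Itih5 side within each tertile and higher in the upper tertile on each side. Nrp2 averaged 1560.1 ± 156 and 844 ± 88.2 CPM on the Itih5 and Clca3a1 sides of the upper tertile, and 1855 ± 114 and 1011 ± 90.4 CPM on the same sides of the lower tertile (SD, n = 3 each). Vegfa averaged 16.3 ± 3.30 and 13.2 ± 2.21 CPM on the Itih5 and Clca3a1 sides of the upper tertile, and 12.1 ± 2.42 and 5.497 ± 1.94 CPM in the lower (SD, n = 3 each). No interaction of side and tertile was tested.

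Proliferating LEC, the 167 cells with at least 2 Mki67 or Top2a UMIs at 3000 UMIs, had lower shares of Kdr and Flt4 than the 17706 LEC with none. Of the 8 members tested, none was higher, 4 were lower and 4 did not pass, where 34% of all genes tested passed, 16.9% as higher and 17.1% as lower. Kdr had 537, 658 and 593 CPM in proliferating LEC, against 1121, 1069.6 and 1060.3 CPM in other LEC (log2 fold change -0.97 ± 0.08, edgeR adjusted p 7.54e-12). Flt4 had 991, 916 and 924 CPM in proliferating LEC, against 1675, 1557 and 1464 CPM in other LEC (log2 fold change -0.83 ± 0.07, edgeR adjusted p 4.87e-11). Both were below every value of the other LEC. Counted per cell, Kdr averaged 8.14, 8.91 and 7.84 UMIs in proliferating LEC, against 9.76, 8.15 and 7.85 UMIs in other LEC. Flt4 averaged 15.0, 12.4 and 12.2 UMIs per proliferating LEC, against 14.6, 11.9 and 10.8 UMIs per other LEC. Proliferating LEC were deeper, with medians of 15739, 12050 and 12476 UMIs, against 8188, 7123 and 6804 UMIs. Per cell, Flt4 UMIs were thus more numerous in proliferating LEC of each library, while Kdr UMIs were fewer in library 1, more in library 2 and nearly equal in library 3.

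Nrp2 was lower by a small log2 fold change of -0.27 (edgeR adjusted p 0.0035), a call lost without library 3 (adjusted p 0.0547) and without the replicate block (0.084), where Kdr and Flt4 alone were called. Flt1 passed on 1 UMI in proliferating LEC (edgeR adjusted p 0.0362), and lost the call without library 2 (adjusted p 0.742) or library 3 (0.0896). Its log2 fold change was -3.03, and -9.79 without library 1. Pgf, at 242, 116 and 142 CPM in proliferating LEC, against 159, 108.9 and 174 CPM in other LEC, did not pass (log2 fold change 0.08, 95% interval -0.15 to 0.31).

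**Figure D5:**
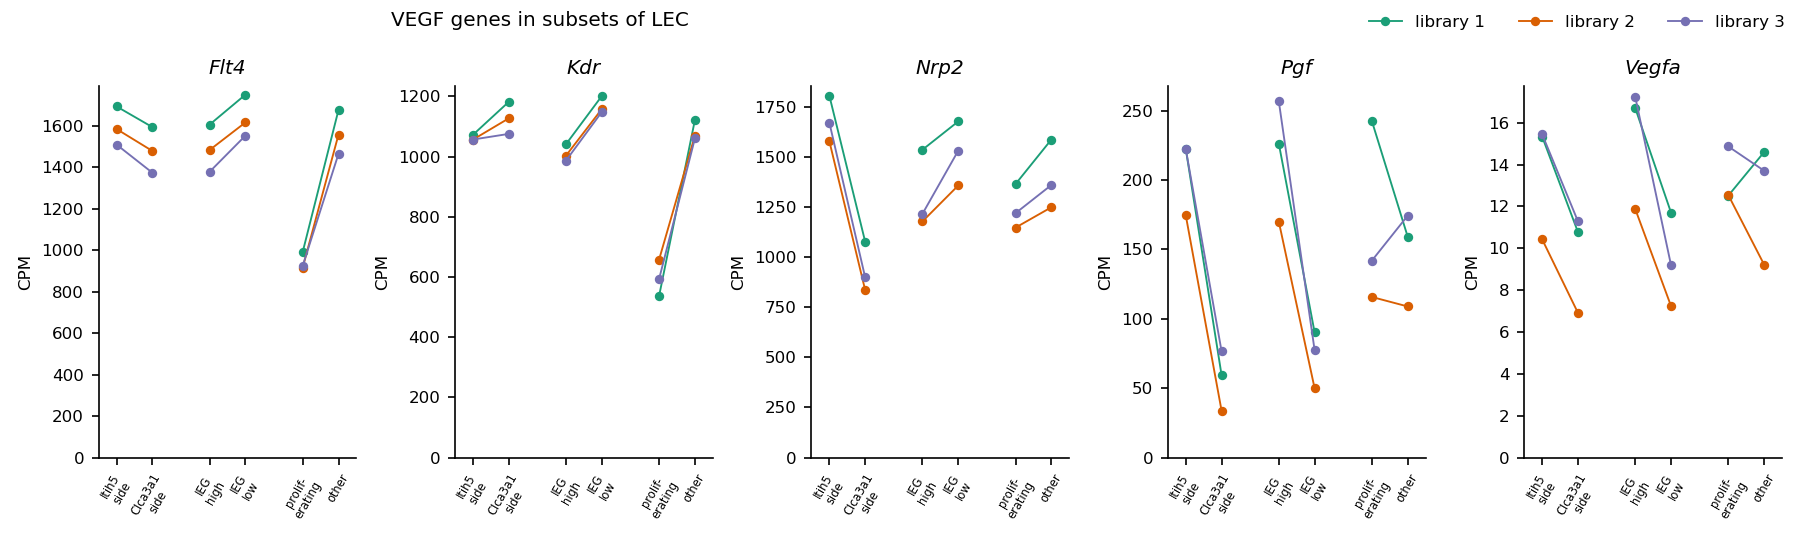
CPM (linear axes from 0) of 5 genes in 3 pairs of LEC subsets, with a line joining the pair of values of each library. Pgf falls steeply along all 3 lines between the Itih5 and Clca3a1 sides and between the immediate-early upper and lower tertiles, Nrp2 between the sides, and Kdr and Flt4 are lower in proliferating LEC than in other LEC.

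The other genes of the pathway were taken from a list of 74 genes that process VEGF ligands, sense hypoxia, partner the receptors, carry their signal or are known targets. In BEC, 21 of the 72 tested were higher and 18 lower than in LEC, with a median log2 fold change of -0.07 against -0.30 over all genes. Of all genes tested, 9.68% were higher and 13% lower. Of 10 VEGF targets, 6 were higher and none lower, with a median of 1.07. Esm1, a secreted proteoglycan of endothelial tip cells, averaged 413 CPM in BEC and 0.429 CPM in LEC (log2 fold change 9.83, edgeR adjusted p 5.72e-11). Apln, the ligand of the apelin receptor, averaged 23.2 and 0.0870 CPM (7.55, adjusted p 2.31e-05). The integrin subunit gene Itgav averaged 7.60 CPM in BEC and 185 CPM in LEC (-4.61, adjusted p 2.15e-08), and Plau, encoding urokinase, 6.05 and 73.6 CPM (-4.24, adjusted p 7.75e-06).

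In fibroblasts, 6 of 9 ligand-processing genes were higher and 2 lower than in LEC, with a median log2 fold change of 3.37 against -0.04 over all genes, of which 24.5% were higher and 23.8% lower. Pcsk5, a proprotein convertase able to cleave the VEGF-C precursor, averaged 194 CPM in fibroblasts and 0.463 CPM in LEC (log2 fold change 8.75, edgeR adjusted p 4.12e-14). It was also higher in mural cells (65.6 CPM) and epithelial cells (89.5 CPM), with log2 fold changes of 7.23 and 8.02 (edgeR adjusted p 6.62e-12 and 3.78e-14). Hpse, encoding heparanase, averaged 41.5 CPM in fibroblasts and 0.492 CPM in LEC (6.29, adjusted p 5.64e-12). Angpt2, a ligand of TIE2, averaged 1.02 and 64.3 CPM (-5.74, adjusted p 2.57e-10). Ptprb, encoding the endothelial phosphatase VE-PTP, averaged 16.0 CPM in fibroblasts, 2.10 CPM in epithelial cells and 2.71 CPM in macrophages, against 328 CPM in LEC, and was lower in all 3 (edgeR adjusted p 5.18e-10, 1.19e-12 and 1.39e-09). Over the whole list, 21 genes were higher and 34 lower in fibroblasts, 22 and 30 in mural cells, 12 and 47 of 72 in epithelial cells, and 19 and 33 of 69 in macrophages. Over all genes tested, the shares higher and lower were 27.8% and 23.9% in mural cells, 37.2% and 38.5% in epithelial cells, and 26.4% and 23.2% in macrophages. Mural cells held more Esm1 than LEC (21.3 and 0.429 CPM, adjusted p 5.81e-06) and less of the kinase gene Yes1 (22.8 and 287 CPM, adjusted p 1.48e-10) and of Plau (3.80 and 73.6 CPM, adjusted p 1.22e-08). BEC averaged 413 CPM of Esm1, and the mural sums held 95.95, 106.6 and 240.7 CPM of Plvap in libraries 1, 2 and 3. The part of blood endothelial RNA in the mural Esm1 level was not tested. Epithelial cells held more Src (28.6 and 1.79 CPM, adjusted p 2.52e-14) and less of the feedback inhibitor Spry4 (0.139 and 44.5 CPM, adjusted p 2.58e-13). Macrophages held more Plcg2 (60.7 and 1.10 CPM, adjusted p 2.64e-13) and Prkcd (138 and 5.27 CPM, adjusted p 5.99e-17) and less of the Notch ligand gene Dll4 (0.671 and 123 CPM, adjusted p 2.97e-09).

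Within LEC, 7 of 8 tested targets were higher on the Itih5 side, with a median log2 fold change of 0.61 against -0.00 over all genes, and none was lower. Over all genes, 13.9% were higher and 14% lower there, and 21.7% and 16.9% in the upper tertile. All 8 tested targets were higher in the immediate-early upper tertile, with a median of 1.10, and Nr4a1 and Egr3 among them are themselves immediate-early genes. The upper tertile held 32.2 ± 2.92% of Itih5-side LEC and 26.0 ± 2.65% of Clca3a1-side LEC (SD, n = 3). The part of this overlap in the target counts was not tested. Plxnd1, a semaphorin receptor, averaged 156 CPM on the Itih5 side and 60.1 CPM on the Clca3a1 side (log2 fold change 1.34, edgeR adjusted p 3.52e-13). Spry4 averaged 56.0 and 21.7 CPM (1.30, adjusted p 1.72e-10). Epas1, encoding the hypoxia factor HIF-2α, averaged 33.3 CPM on the Itih5 side and 144 CPM on the Clca3a1 side (-2.17, adjusted p 1.12e-14), and Plat, encoding tissue plasminogen activator, 7.003 and 23.4 CPM (-1.80, adjusted p 3.01e-10). In the upper against the lower tertile, Nr4a1 averaged 325 and 23.2 CPM (4.08, adjusted p 2.26e-12) and Egr3 averaged 58.8 and 4.69 CPM (3.89, adjusted p 1.58e-10). The integrin genes Itgb1 (536 and 810.4 CPM, adjusted p 7.6e-05) and Itgb3 (20.2 and 31.1 CPM, adjusted p 0.00248) were lower there. Over the whole list, 20 of 64 genes were higher and 10 lower on the Itih5 side, and 27 of 67 were higher and 7 lower in the upper tertile.

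In proliferating LEC, 8 of 67 listed genes were higher and 21 lower than in other LEC, where 16.9% of all genes tested were higher and 17.1% lower. Vegfb, encoding a further ligand of VEGFR1, averaged 67.1 CPM in proliferating and 36.7 CPM in other LEC (log2 fold change 0.77, edgeR adjusted p 2.29e-04). Epas1 averaged 15.7 and 66.7 CPM (-2.17, adjusted p 8.73e-11), and Egr3 averaged 14.1 and 32.9 CPM (-1.34, adjusted p 1.5e-05).

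Genes with the pattern most like each member were ranked by Pearson's r of mean log2(CPM + 1) over 5 classes (BEC, fibroblasts, mural cells, epithelial cells and LEC), among 9233 genes of at least 20 CPM in 1 class. With 5 points that share libraries, r describes only the shape of the pattern, not its range, and carries no test. Some of the genes named below were nearly flat. In epithelial cells and LEC, Armc8 averaged 20.2 and 32.4 CPM, where Flt4 averaged 12.2 and 1555 CPM, and Polr2g averaged 35.2 and 63.7 CPM. Nearest to Kdr were Rasgrp3 (r = 0.9999), Parvb (0.999) and Emcn (0.999), and Emcn, an endothelial sialomucin, averaged 744 CPM in BEC and 579 CPM in LEC. Nearest to Flt4 were Armc8 (0.998), Nckap1 (0.996) and Stab1 (0.996), of which Stab1, a scavenger receptor of sinusoidal and lymphatic endothelium, had the widest range, from 826 CPM in LEC to 9.88 CPM in epithelial cells. Nearest to Flt1 were Clu (0.991), Sh3bp4 (0.990) and Ssbp3 (0.990), and nearest to Nrp1 were the basement membrane collagen gene Col15a1 (0.997), Jam2 (0.994) and Cadm3 (0.993). For Nrp2 they were Polr2g (0.999), Ahctf1 (0.998) and Kctd17 (0.998). For Vegfd the first was Tagln (0.999), a smooth muscle actin-binding protein gene, followed by Snrpc (0.998) and Nptn (0.991), and for Vegfc they were Arid5b (0.994), Lama5 (0.994) and F2rl3 (0.991). For Vegfa they were Creg1 (0.996), Shisa2 (0.987) and Chid1 (0.985), and for Pgf Nf1, Fam45a (both 0.9995) and Ckap5 (0.998).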

How the data were processed

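The authors deposited 1 matrix of unnormalized UMI counts for each library, genes by barcodes. The submitters' processing notes name bcl2fastq 2.2, Cell Ranger 6.1.2 and mm10, and a 3′ droplet kit was used per the labels' protocols. No annotation release is given in the sources used here.

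Kept cells had 500 or more genes and no more than 15% of UMIs from mitochondrial genes. They were gated on raw UMIs of marker genes. Cells passing 2 gates were left out, no doublet caller was run, and an alternative left out the top 5% of UMIs in each class. UMIs were summed per library and class where every library held 20 cells or more. Sums were tested by edgeR 4.0.16 under R 4.3.3 (filterByExpr, TMM, quasi-likelihood fit) with the library as a replicate block: the pairing comes from the pool of animals and the run that both sums of a library share. P-values were adjusted by Benjamini-Hochberg over all genes tested, with a threshold of 0.05. The standard error was taken as |log2 fold change| / √F, and 95% intervals are normal intervals from it. LEC subsets were gated on cells thinned to 3000 UMIs, and all UMIs of those cells were summed. The procedure was tested on simulated data.

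Named genes were the 9 members; of the pathway list, the 2 genes with the largest fold in each direction that passed with 1 sign in 3 libraries and reached 20 CPM; and, per member, the 3 genes of most similar pattern. A gene that this rule named is not reported here. Members and lists were chosen with earlier results of these data known. Promoters are from RefSeq (GRCm38.p6), where 11 entries matched the 9 members. Alternatives were DESeq2 1.42.0, other size factors, no filter, no replicate block, each library left out, only the pair of classes compared, thinned cells, stricter gates and cell filters, the top 5% of UMIs left out and the LEC gate applied alone. Chosen after the data were seen were the minimum of 15 cells for macrophages with their leave-one-out values, and the settings on cells passing the BEC and mural gates, on Plvap and on Cdh5. Intervals and limits cover counting error only where they are Poisson or binomial.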

Additional observations from a re-analysis of the deposited data

Results flagged for a closer look

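Members were also measured in barcodes that no comparison used. The 1600 barcodes passing no gate, pooled over libraries, held 38.0 CPM of Flt1, 723 CPM of Kdr, 1121 CPM of Flt4, 22.3 CPM of Nrp1 and 934 CPM of Nrp2. They held 16.5 CPM of Vegfa, 4.50 CPM of Vegfc, 2.18 CPM of Vegfd and 82.4 CPM of Pgf. Each value is above the level that 3 UMIs give, 0.435 CPM. Kdr was detected in 1144 and Flt4 in 1271 of these barcodes, so cells with endothelial receptors were among those that the gates missed.

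The 53 barcodes passing both the BEC and the mural gate held 942 CPM of Flt1, 578 CPM of Kdr, 59.5 CPM of Flt4, 450.5 CPM of Nrp1 and 218 CPM of Nrp2, together with 13.5 CPM of Vegfa and 62.2 CPM of Vegfc. These are above the 4.06 CPM that 3 UMIs give there. Flt1 was found in all 53. With these barcodes kept as BEC, BEC numbered 172 and 6 members were called against LEC, as without them.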

How the results depend on the processing

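For single members, 851 of 896 alternative values kept their side of the threshold, and their direction wherever the main or the alternative value passed. Values that passed in neither setting could change sign and are counted among the 851, as for Kdr in BEC against LEC. Of the rest, 36 lost the call, 5 gained one and 4 reversed. The reversed values were Flt1 in fibroblasts against LEC without cells of 2 Cdh5 UMIs (-1.06), Nrp1 in epithelial cells against LEC without Plvap-bearing LEC (1.88), and Flt1 in the immediate-early upper against the lower tertile without library 2 (-0.62, against 1.61 without library 3) or without the top 5% of UMIs (-0.14). Genes called in BEC against LEC ranged from 1679 to 2074 with 1 library left out, against 2885 with all, and in mural cells from 4044 to 5977, against 6567. Both lowest counts came without library 2. Leaving out library 1 also brought macrophages, T/ILC and plasma cells into the class fit. With cells thinned to 3000 UMIs, 1845 genes were called in BEC, 3392 in fibroblasts, 3358 in mural cells and 5166 in epithelial cells against LEC, 1937 between the Itih5 and Clca3a1 sides and 2164 in proliferating LEC. DESeq2 called 1421 genes between the sides and 2409 between the tertiles. Without the replicate block, 1564 and 2554 genes were called there, 2 members between the sides and 2 members in proliferating LEC. Members called in proliferating LEC ranged from 2 to 4 with 1 library left out, and 2 were called without library 3. Without the top 5% of UMIs, 2497 genes were called in proliferating LEC. The causes of these changes were not tested. The median log2 fold change of all genes in BEC was -0.30 with TMM and -0.14 with DESeq2-type size factors, in fibroblasts -0.04 and 0.14, and in mural cells -0.00 and 0.11. The Kdr value in BEC against LEC ranged from -0.19 to 0.42 over 17 alternatives and never passed. At 5000 UMIs per cell, Pgf was found in 30.9% of LEC and Vegfa in 5.67%. Mural cells were not tested under the stricter cell filter, which left under 20 cells in library 1. Depth limits Vegfc, Vegfd, Flt1 and Nrp1 in LEC, with 99, 174, 423 and 162 UMIs in 18541 cells.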
